A study of Mus musculus with 6 samples.

Results

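The proteasome genes were taken as every gene whose symbol is Psm, a letter from a to g and a number, and 49 of the 23099 gene symbols in the deposited tables fit that rule. A symbol with several rows was represented by the one with the highest mean. Expression was measured by sequencing of polyA RNA from whole pancreas at 8 weeks of age, in 3 Ela1-Myc libraries and 3 wild-type (WT) libraries. Ela1-Myc mice carry a Myc transgene under the elastase 1 promoter, which is active in acinar cells, the enzyme-secreting cells of the pancreas, so as a model it is limited to expression in those cells. The labels name no other allele or treatment in either group. They do not say that each library came from a separate animal, so the tests below measure the spread between these libraries.

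The proteasome is the protease that degrades proteins tagged with ubiquitin. Its 20S core is a barrel of alpha rings (Psma genes), which gate the entrance, and beta rings (Psmb genes), of which Psmb5, Psmb6 and Psmb7 carry the active sites. The 19S regulator binds and unfolds the substrate with a ring of ATPases (Psmc genes) and non-ATPase subunits (most Psmd genes), while other Psmd and Psmg genes encode assembly chaperones and Psme genes encode alternative activators. In leukocytes, and in other cells exposed to interferon, Psmb8, Psmb9 and Psmb10 replace Psmb5, Psmb6 and Psmb7 and give the immunoproteasome, which cuts peptides suited to antigen presentation. Acinar cells make secretory protein at a high rate and depend on degradation of misfolded protein.

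Windows of 250 bases before the annotated start are shown for the genes whose values differed most in kind: inducible subunits beside their constitutive counterparts, and a pair of regulator subunits called in opposite directions after scaling. They are from RefSeq (GRCm38.p6), read 5′ to 3′ on the gene's strand, and the capitals mark matches to any of 6 motifs searched on both strands. The motifs were CACGTG (the E-box bound by Myc and related factors), TGACNNNGC, CCAAT, the ETS-type CCGGAAG, an interferon-type motif (GAAA, any 2 bases, GAAA) and TTCNNNGAA. Psmb8 holds TTCNNNGAA and Psmb9 holds CCAAT in reverse, and their constitutive counterparts Psmb5 and Psmb6 hold TGACNNNGC. Psmb10 holds the E-box, and the ETS-type motif is in Psmd6, reading forward, and in Psmd2, reading in reverse. The windows are chr17:34197945-34198194 on the plus strand (Psmb8), chr14:54617996-54618245 on the minus strand (Psmb5), chr17:34187331-34187580 on the minus strand (Psmb9), chr11:70525107-70525356 on the plus strand (Psmb6), chr8:105938393-105938642 on the minus strand (Psmb10), chr14:14120946-14121195 on the minus strand (Psmd6) and chr16:20651402-20651651 on the plus strand (Psmd2).
Psmb8: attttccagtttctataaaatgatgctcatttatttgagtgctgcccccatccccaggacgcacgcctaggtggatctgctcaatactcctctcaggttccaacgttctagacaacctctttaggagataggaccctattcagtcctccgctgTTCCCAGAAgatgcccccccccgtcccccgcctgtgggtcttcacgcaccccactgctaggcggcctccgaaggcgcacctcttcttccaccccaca
Psmb5: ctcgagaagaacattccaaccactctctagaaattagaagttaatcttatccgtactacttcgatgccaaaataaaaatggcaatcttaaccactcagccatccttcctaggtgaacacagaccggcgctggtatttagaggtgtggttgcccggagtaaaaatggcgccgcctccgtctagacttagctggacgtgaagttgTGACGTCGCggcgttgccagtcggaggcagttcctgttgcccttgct
Psmb9: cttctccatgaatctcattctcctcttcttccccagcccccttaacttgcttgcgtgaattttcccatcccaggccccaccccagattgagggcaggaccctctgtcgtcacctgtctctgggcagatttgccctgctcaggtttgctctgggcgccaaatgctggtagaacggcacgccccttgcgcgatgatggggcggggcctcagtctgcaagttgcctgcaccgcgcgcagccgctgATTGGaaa
Psmb6: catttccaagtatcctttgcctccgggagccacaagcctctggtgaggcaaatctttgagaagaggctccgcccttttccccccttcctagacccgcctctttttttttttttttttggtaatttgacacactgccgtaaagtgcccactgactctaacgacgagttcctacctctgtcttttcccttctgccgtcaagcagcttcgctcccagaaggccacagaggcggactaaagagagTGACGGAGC
Psmb10: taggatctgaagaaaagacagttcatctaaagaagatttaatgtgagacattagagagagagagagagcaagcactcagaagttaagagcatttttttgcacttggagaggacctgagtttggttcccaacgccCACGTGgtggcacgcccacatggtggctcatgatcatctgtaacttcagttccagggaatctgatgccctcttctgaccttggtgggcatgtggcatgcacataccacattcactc
Psmd6: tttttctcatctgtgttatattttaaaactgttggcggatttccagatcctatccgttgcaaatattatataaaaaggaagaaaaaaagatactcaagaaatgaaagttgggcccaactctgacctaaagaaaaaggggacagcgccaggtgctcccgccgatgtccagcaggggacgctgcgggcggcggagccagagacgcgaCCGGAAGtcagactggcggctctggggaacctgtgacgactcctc
Psmd2: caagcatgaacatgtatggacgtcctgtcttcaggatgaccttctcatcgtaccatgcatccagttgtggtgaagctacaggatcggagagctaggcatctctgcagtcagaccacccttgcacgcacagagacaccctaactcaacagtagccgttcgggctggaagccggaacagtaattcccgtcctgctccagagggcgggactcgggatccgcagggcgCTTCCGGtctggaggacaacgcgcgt

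The RefSeq table held 41 of the 49 genes, without Psma8, Psmb1, Psmb2, Psmb7, Psmc3, Psmd3, Psmd7 and Psmg2. The 41 include Psmb11 and Psmc3ip, whose expression was too low to be tested. Each proteasome gene was given 1 window, the nearest to its listed start, while every window held was counted for tested genes and for all genes. CCGGAAG was in 13 of the 41 windows (31.7%), against 14.1% of the 8108 windows of tested genes and 6.91% of all 32851 windows. The 13 were Psma6, Psmc1, Psmc2, Psmc3ip, Psmc6, Psmd2, Psmd4, Psmd6, Psmd11, Psmd12, Psme3, Psme4 and Psmg1, so this letter string was seen in regulator, activator and assembly genes, in Psmc3ip and in 1 gene of the core, Psma6. CACGTG was in 4 windows (9.76%, against 8.6% of tested genes), TGACNNNGC in 5 (12.2%, against 12.1%) and CCAAT in 14 (34.1%, against 35.1%). The interferon-type motif was in 3, Psmb3, Psmd4 and Psmd9 (7.32%, against 2.86%) and TTCNNNGAA in 2, Psmb8 and Psmg1 (4.88%, against 5.96%). These are matches of letters, not sites of binding.

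The libraries differed in ways that touch every proteasome gene. Values are the authors' adjusted FPKM (fragment counts normalised for transcript length and mapped fragments) divided by 100000, and they summed to between 629597 and 1088320 in Ela1-Myc and to between 669391 and 1948844 in WT. Of the 8802 genes with a mean of at least 1, between 0 and 29 were listed at 0 in an Ela1-Myc library, against 592 to 1426 in a WT library. RNA integrity numbers in the labels were 8.8, 7.2 and 8.3 in Ela1-Myc and 7.3, 7.3 and 7.1 in WT, below the 8.5 that the protocol text names for all but 1 library. Myc values were 52.0, 34.4 and 34.2 in Ela1-Myc, against 0, 4.10 and 0 in WT. The 9 acinar markers were above 0 in every library of both groups, and limma called 5 of them lower in Ela1-Myc as deposited and 8 after the scaling described next; their part in the values of proteasome genes was not tested. On the deposited scale the median gene was 1.22 log2 units higher in Ela1-Myc, so each result is also given after median-of-ratios scaling, on which the median gene was 0.23 log2 units higher.

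On the deposited scale nearly every proteasome gene was higher in Ela1-Myc pancreas. Of the 49 genes, 46 passed the minimum mean of 1, and 42 of these were called higher and 0 lower by limma at an adjusted p under 0.05. Over all 8802 genes tested the same call was made for 70.2% (higher) and 0.239% (lower). Psmb5, Psmb10, Psmd6 and Psme4 were not called. Of the 46, 15 were listed at 0 in 1 or more WT libraries and passed the minimum largely through their Ela1-Myc values, so counts and medians over the 46 are a description. The median log2 change of the 46 was 2.38, against 1.22 for all genes tested, and 2.13 for the 31 that were above 0 in all 6 libraries. In 43 of the 46 every Ela1-Myc value lay above every WT value, which held for 75.3% of all genes tested.

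**Figure D1:**
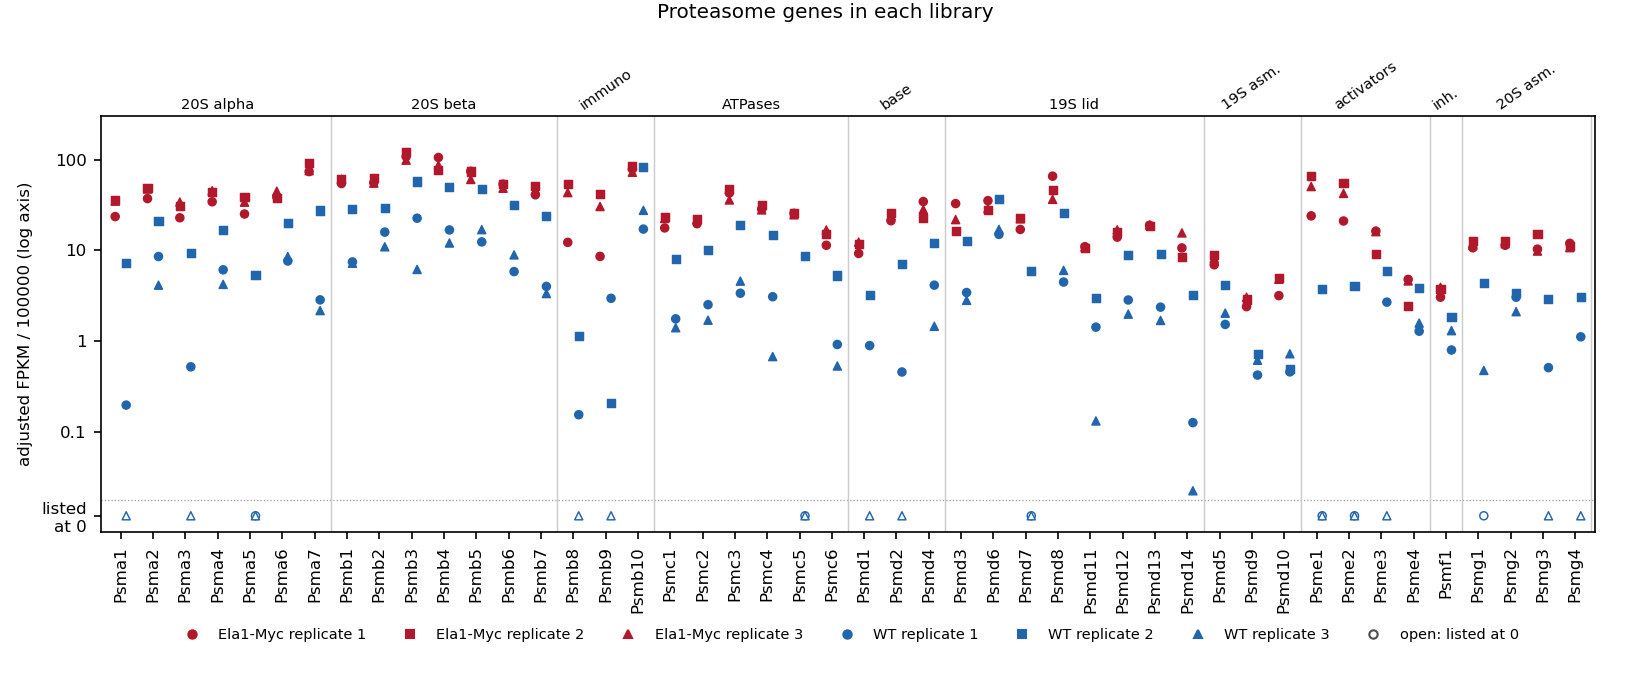
Adjusted FPKM / 100000 (log axis) of the 46 tested proteasome genes in each library, grouped by role, with Ela1-Myc left of WT for each gene and open markers for genes listed at 0. In most genes the 3 Ela1-Myc libraries sit close together above the WT libraries, and WT replicate 2 is the highest WT library for all of these genes but Psmb9 and Psmd10.

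The WT libraries differed among themselves. No proteasome gene was listed at 0 in WT replicate 2, against 8 of the 49 in WT replicate 1 and 15 in WT replicate 3. In Ela1-Myc 1 gene, Psmb11, was listed at 0 in replicate 1 and none in the other replicates. Set against WT replicate 2 alone, the Ela1-Myc mean was above the WT value for 44 of 46 genes, with a median ratio of 2.42. The same median over the 8210 tested genes above 0 in that library was 2.16. By that median most of the 8210 were higher too, and their share was not counted, so the 44 is a description. In a bulk sample such as these, fewer cells of a type and less RNA per cell cannot be told apart.

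After median-of-ratios scaling the set split. Of the 46, 10 were called higher (18.3% of all genes tested were), 1 was called lower (8.02% of all were) and 35 were not called. The median log2 change was 1.07, against 0.23 for all genes, and 0.79 for the 31 genes above 0 in all 6 libraries. The 10 were Psma1, Psma5, Psmb8, Psmd2, Psmd7, Psmd10, Psmd14, Psme1, Psme2 and Psmg3, of which all but Psmd10 and Psmd14 had a 0 in 1 or more WT libraries. Every Ela1-Myc value lay above every WT value for 26 of the 46 on this scale, against 30.4% of all genes tested. Refitted on the 6995 genes above 0 in all 6 libraries, where 10.5% were called higher, 6 of the 31 proteasome genes were called higher (Psma7, Psmc1, Psmc6, Psmd10, Psmd11 and Psmd14). The 10 calls became fewer or more when a library was left out. Without Ela1-Myc replicate 2 or 3 there was 1, Psmb8 (6.29% and 5.87% of all genes tested were called higher). Without WT replicate 2 there were 24 (20.9% of all were).

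**Figure D2:**
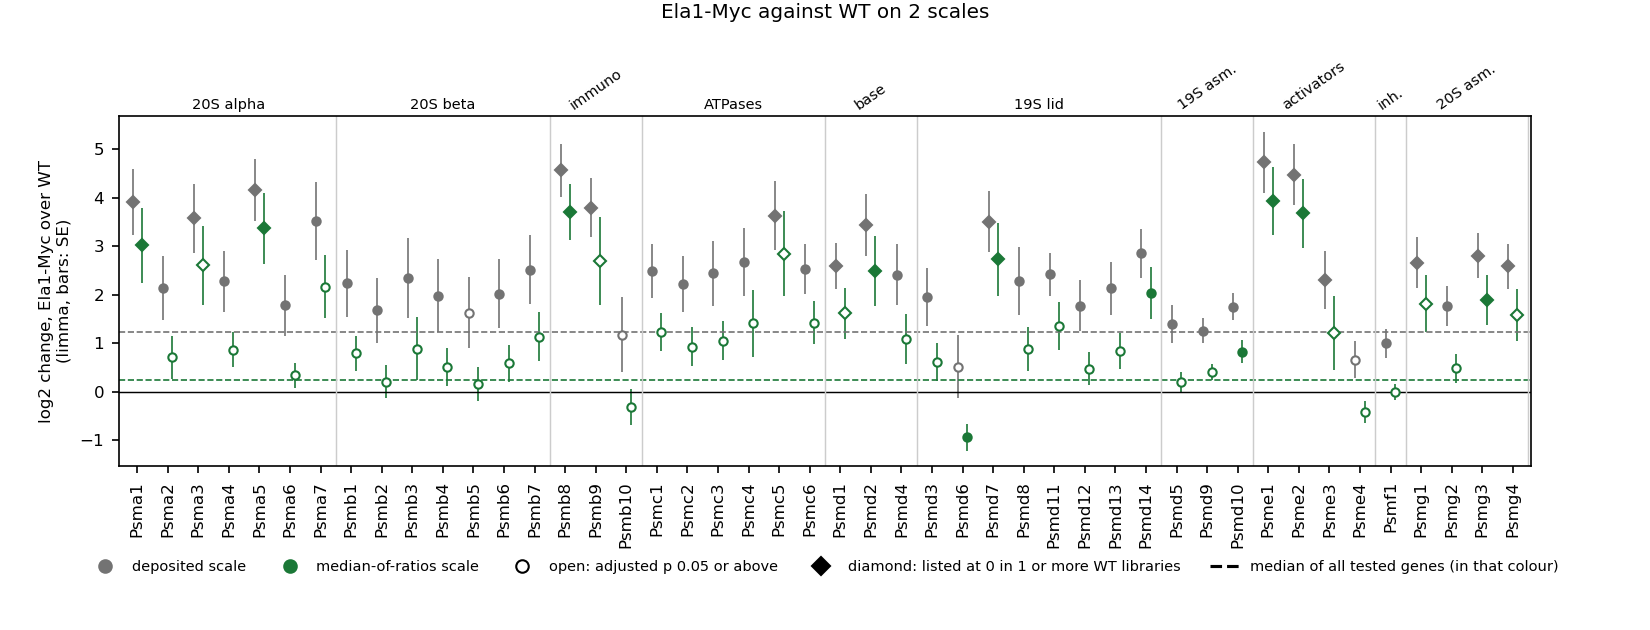
Fitted log2 change of each tested proteasome gene, Ela1-Myc over WT, with its standard error, on the deposited scale (grey) and the median-of-ratios scale (green); filled symbols have an adjusted p under 0.05, diamonds are listed at 0 in a WT library, and dashed lines mark the median of all genes tested. Psmb8, Psme1 and Psme2, all listed at 0 in a WT library, lie at the top on both scales. Psmd6, Psme4, Psmb10 and, by -0.0071, Psmf1 fall below 0 after scaling.

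Among the alpha subunits of the core, all 7 were called higher on the deposited scale, with a median log2 change of 3.52, and 2 after scaling, where the median was 2.16. Of all genes tested, 70.2% were called higher as deposited and 18.3% after scaling. Psma1, Psma3 and Psma5 were listed at 0 in 1 or more WT libraries; the 4 others had medians of 2.20 as deposited and 0.79 after scaling, where 0 of them were called, so both scaled calls rest on genes listed at 0. Psma7 had the highest level, at 73.9, 90.8 and 75.6 in Ela1-Myc, against 2.86, 27.5 and 2.18 in WT. Its means were 80.1 ± 9.31 in Ela1-Myc and 10.9 ± 14.5 in WT (SD, n = 3 each), and the log2 change was 3.52 ± 0.80 (SE, limma adjusted p = 0.00186), and 2.16 ± 0.65 after scaling (limma adjusted p = 0.0508). Psma5, with the largest fitted change after scaling and zeros in WT, was at 25.2, 38.4 and 34.0 in Ela1-Myc, against 5.41 in WT replicate 2 and 0 in the other WT libraries (limma adjusted p = 0.0199 after scaling, and between 0.0535 and 0.086 without any 1 of the Ela1-Myc libraries or without WT replicate 3). Psma3, the alpha subunit with the lowest mean, was at 22.9, 31.1 and 34.1 in Ela1-Myc, against 0.524, 9.47 and 0 in WT. Psma6 had the smallest scaled change of the ring, at 38.9, 37.7 and 44.9 in Ela1-Myc, against 7.66, 20.2 and 8.57 in WT, where the log2 change was 0.34 ± 0.25 (SE, limma adjusted p = 0.343). As deposited every Ela1-Myc value of these 4 genes lay above every WT value, as held for 75.3% of all genes tested. Within Ela1-Myc each gene's libraries lay close together. In Psma5, 54.5% of the 50-base words of its transcripts also occur in other genes, and in Psma3 22.0% do.

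Of the 7 constitutive beta subunits, 6 were called higher on the deposited scale (median log2 change 2.02), and 0 on the median-of-ratios scale (median 0.58). The shares of all genes tested were 70.2% and 18.3%. All 7 were above 0 in every library. Psmb3, a structural beta subunit, had the highest mean of the core, at 108, 120.2 and 98.8 in Ela1-Myc, against 22.7, 57.5 and 6.19 in WT. Psmb5, the chymotrypsin-like catalytic subunit, was at 74.4, 74.0 and 60.5 in Ela1-Myc, against 12.4, 47.8 and 17 in WT. Psmb6, the caspase-like catalytic subunit, was at 53.7, 53.6 and 48.5 in Ela1-Myc, against 5.86, 31.6 and 8.95 in WT. These 3 genes were higher in every Ela1-Myc library than in any WT library, as were 75.3% of all genes tested, with WT replicate 2 the nearest. Psmb7, the trypsin-like catalytic subunit, was at 41.1, 51.2 and 46.1 in Ela1-Myc, against 4.02, 24.2 and 3.36 in WT. The log2 change was 1.63 ± 0.73 for Psmb5 (SE, limma adjusted p = 0.0575), and it was 2.02 ± 0.71 for Psmb6 (limma adjusted p = 0.0205). It was 2.52 ± 0.71 for Psmb7 (limma adjusted p = 0.0068). After scaling the catalytic subunits differed by 0.16, 0.58 and 1.13 log2 units for Psmb5, Psmb6 and Psmb7, with limma adjusted p of 0.745, 0.285 and 0.135. Psmb5 shares 57.1% of its 50-base words with other genes.

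FPKM is a value per length, so the core genes were set in order of level. The authors' adjustment of the values is not stated, which limits this order. So do 50-base words shared with other genes, most in Psmb5 (57.1%), Psma5 (54.5%), Psma4 (25.6%) and Psma3 (22.0%). In Ela1-Myc the order of the means was Psmb3 (109 ± 10.7), Psmb4 (89.9), Psma7 (80.1), Psmb5 (69.7), Psmb1 (59.0), Psmb2 (57.6), Psmb6 (51.9), Psmb7 (46.1), Psma2 (44.5), Psma4 (41.4), Psma6 (40.5), Psma5 (32.6), Psma1 (31.6) and Psma3 (29.4). The highest was 3.71 times the lowest. Across libraries 12 of the 13 neighbouring pairs overlapped, the exception being Psmb2 and Psmb6. Within each Ela1-Myc library, however, Psmb3 was above Psmb4, Psmb6 above Psmb7, Psma2 above Psma4 and Psma1 above Psma3. The other overlapping neighbours changed order between Ela1-Myc libraries and are not resolved, among them Psmb7 and Psma2. Psmb7 was at 41.1, 51.2 and 46.1, and Psma2 at 37.3, 48.8 and 47.5, in Ela1-Myc replicates 1, 2 and 3.

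Of the inducible subunits, Psmb8 and Psmb9 were called higher on the deposited scale, as were 70.2% of all genes tested, and Psmb10 was not. Psmb8, the counterpart of Psmb5, was at 12.3, 54.2 and 43.4 in Ela1-Myc, against 0.156, 1.14 and 0 in WT, and was called higher on both scales (limma adjusted p = 2.36e-05 as deposited and 0.00659 after scaling). Psmb9, the counterpart of Psmb6, was at 8.61, 41.4 and 30.5 in Ela1-Myc, against 2.98, 0.208 and 0 in WT, with limma adjusted p of 0.000184 as deposited and 0.0668 after scaling. Psmb10, the counterpart of Psmb7, was at 78.9, 84.2 and 72.7 in Ela1-Myc, against 17.2, 83.0 and 27.7 in WT. As deposited Psmb8 and Psmb9 lay higher in every Ela1-Myc library than in any WT library, as did 75.3% of all genes tested. Both were lowest of the Ela1-Myc libraries in replicate 1, whereas the Psmb10 groups overlapped because WT replicate 2 reached the Ela1-Myc level. After scaling the Psmb9 groups overlapped too, with Ela1-Myc replicate 1 at 4.97 and WT replicate 1 at 7.07. The log2 change of Psmb10 was 1.17 ± 0.77 as deposited (SE, limma adjusted p = 0.178), and it was -0.31 ± 0.37 after scaling (SE, limma adjusted p = 0.551). Psmb8 was called higher on the median-of-ratios scale under every alternative that tested it, with limma adjusted p between 0.00241 and 0.0435. The fit limited to genes above 0 in every library did not test Psmb8. Psmb9 was called higher after scaling without WT replicate 1 (limma adjusted p = 0.0119) and against WT replicate 2 alone (0.0242).

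Psmb8 (chr17:34198195-34201454, plus strand) and Psmb9 (chr17:34182099-34187330, minus strand) lie on either side of Tap1, the peptide transporter gene of antigen presentation, in GRCm38. Psmb9 shares 212 exon bases with Tap1 on the opposite strand, and Psmb8 shares 498 with an antisense transcript, Gm20496. The sources used here do not state whether the authors' quantification used strand, so reads in those bases cannot be told apart. Psmb10 (chr8:105935728-105938392, minus strand) lies 1865 bases from the chymotrypsin-like gene Ctrl on the same strand. Ctrl was at 41594, 21032 and 32121 in Ela1-Myc, against 39680, 118786 and 70095 in WT, far above Psmb10 in every library. Among the WT libraries both were highest in replicate 2, as was every other tested proteasome gene but Psmb9 and Psmd10. Among the Ela1-Myc libraries Ctrl was lowest in replicate 2, where Psmb10 was highest. The part of Ctrl in the Psmb10 values was not tested.

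**Figure D3:**
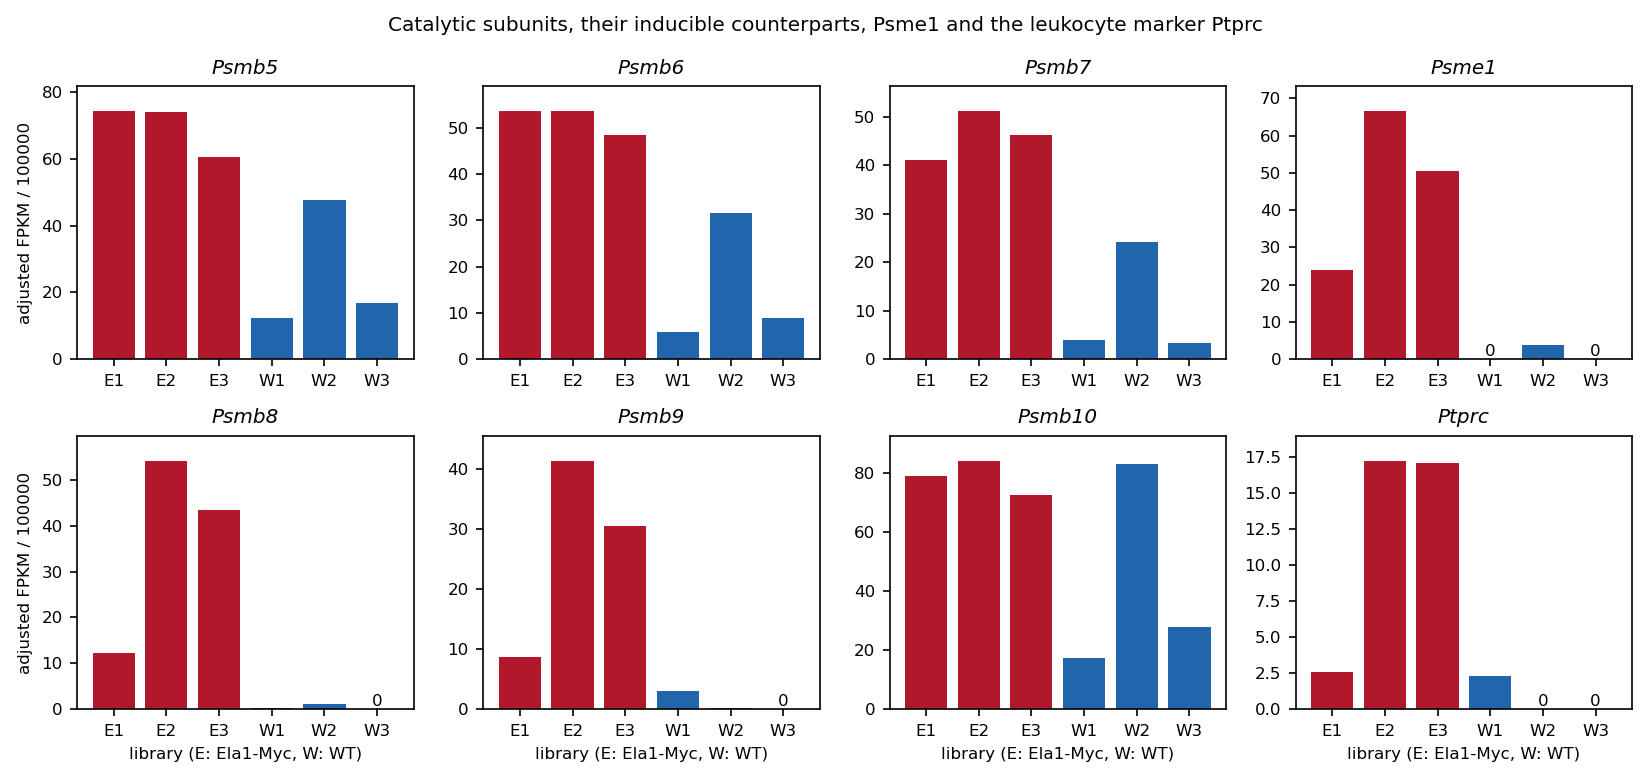
Adjusted FPKM / 100000 of the catalytic subunits Psmb5, Psmb6 and Psmb7 (top row), their inducible counterparts Psmb8, Psmb9 and Psmb10 below them, the activator Psme1 and the leukocyte marker Ptprc, with 1 bar per library (E, Ela1-Myc; W, WT; a 0 marks a gene listed at 0). Psmb8, Psmb9, Psme1 and Ptprc share a low first Ela1-Myc bar, while Psmb10 has its highest WT bar at the Ela1-Myc level.

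Ratios within a library do not depend on a factor common to all its genes. Whether the authors' adjustment of the FPKM was such a factor is not stated. Psmb8 over Psmb5 was 0.165, 0.732 and 0.717 in Ela1-Myc, against 0.0125, 0.0237 and 0 in WT. Psmb9 over Psmb6 was 0.160, 0.773 and 0.629 in Ela1-Myc, against 0.508, 0.00658 and 0 in WT. The first ratio was higher in every Ela1-Myc library, and the second was not, because WT replicate 1 exceeded Ela1-Myc replicate 1. Psmb10 over Psmb7 ran the other way, at 1.92, 1.64 and 1.58 in Ela1-Myc, against 4.28, 3.42 and 8.24 in WT. Its means were 1.71 ± 0.183 in Ela1-Myc and 5.31 ± 2.57 in WT (SD, n = 3 each), a log2 difference of -1.53 with no overlap (exact two-sided permutation test p = 0.1, the smallest that 3 against 3 allows; 0.15 adjusted over the 3 ratios tested).

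The rings of the complex were compared in the same way. The summed beta subunits over the summed alpha subunits were 1.92, 1.53 and 1.44 in Ela1-Myc, against 3.28, 2.50 and 3.44 in WT. The groups did not overlap, with a log2 difference of -0.91 (exact two-sided permutation test p = 0.1, adjusted 0.15). The summed ATPases over the summed alpha subunits were 0.570, 0.506 and 0.473 in Ela1-Myc, against 0.451, 0.616 and 0.467 in WT. These overlapped, with a log2 difference of 0.02 (exact two-sided permutation test p = 0.8). The zeros of Psma1, Psma3 and Psma5 in WT enter the alpha sums, and those of Psmc5 in WT replicates 1 and 3 enter the ATPase sums. Over the subunits above 0 in all 6 libraries, a choice made after seeing the data, beta over alpha was 2.67, 2.26 and 2.14 in Ela1-Myc, against 3.38, 3.15 and 3.44 in WT, and the log2 difference was -0.50 (exact two-sided permutation test p = 0.1). Over the same subunits ATPase over alpha was 0.652, 0.632 and 0.586 in Ela1-Myc, against 0.464, 0.672 and 0.467 in WT, with a log2 difference of 0.24 (exact two-sided permutation test p = 0.4).

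**Figure D4:**
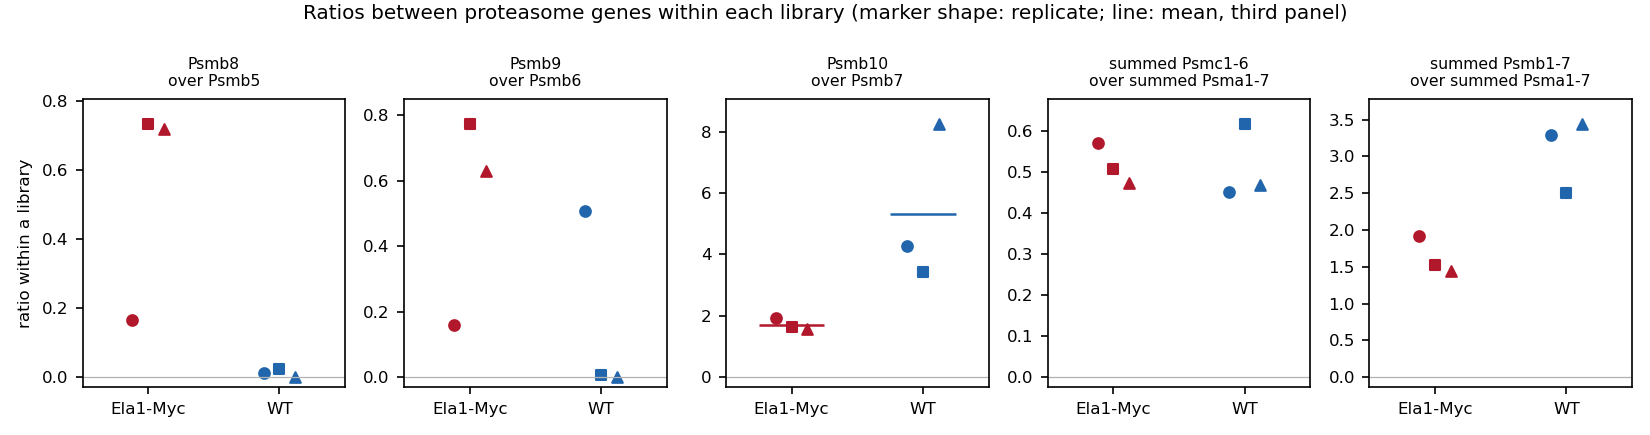
Ratios between proteasome genes within each library (linear axes, marker shape for the replicate, lines for means in the Psmb10 panel, the one whose genes are above 0 in every library), Ela1-Myc left of WT. Psmb8 over Psmb5 is higher in Ela1-Myc, Psmb10 over Psmb7 and summed beta over summed alpha are higher in WT without overlap, and the ATPase to alpha ratio overlaps.

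The interferon-inducible activator subunits Psme1 and Psme2, which form a cap on the core, were like Psmb8 in their values. Psme1 was at 24.1, 66.6 and 50.6 in Ela1-Myc, against 0, 3.74 and 0 in WT. Psme2 was at 21.1, 55.9 and 42.5 in Ela1-Myc, against 0, 4.06 and 0 in WT. Both were called higher on both scales, with limma adjusted p after scaling of 0.0106 for Psme1 and 0.0138 for Psme2. Those scaled calls were lost without Ela1-Myc replicate 2 (0.0538 and 0.066 for Psme1 and Psme2) and without Ela1-Myc replicate 3 (0.0568 and 0.0687). They lie near each other on chromosome 14 (chr14:55578494-55581527 and chr14:55587440-55591101), and 59.3% of the 50-base words of Psme2 also occur in other genes.

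Psmb9, Psmb8, Psme1 and Psme2 also varied most among the Ela1-Myc libraries. Their highest value was 4.81, 4.41, 2.77 and 2.65 times their lowest, in that order, whereas the other 42 tested proteasome genes spanned 1.03 to 1.98 times, with a median of 1.27. The median over the 8768 tested genes above 0 in all Ela1-Myc libraries was 1.60. Within Ela1-Myc, leukocyte markers were also lowest in replicate 1: Ptprc, the pan-leukocyte surface marker, was at 2.56, 17.2 and 17.1 in Ela1-Myc, against 2.28, 0 and 0 in WT, and Cd74, the class II invariant chain, was at 233, 913 and 844, against 192, 45.9 and 0. The 13 leukocyte markers summed to 696, 2812 and 2365 in Ela1-Myc and to 350.7, 128.5 and 0.129 in WT. None was at 0 in Ela1-Myc, while 1, 7 and 12 were at 0 in WT replicates 1, 2 and 3. On the deposited scale 13 of 13 were called higher (70.2% of all genes tested were), and after scaling 2 were, Cd68 and Itgam (18.3% of all were). In WT the orders differed: the leukocyte sum was highest in replicate 1, while Psmb8, Psme1 and Psme2 were highest in replicate 2 and Psmb9 in replicate 1. Sums of the duct, endothelial, stellate and fibroblast, islet, adipocyte and proliferation markers were lowest in Ela1-Myc replicate 1 as well. Single markers could differ: the lowest stellate and fibroblast value was 58.5 in Ela1-Myc replicate 1 and 28.7 in replicate 2. The red cell sum was lowest in replicate 3 (351, 758 and 333 in Ela1-Myc), and the acinar sum was highest in replicate 1 (375392, 177388 and 265850). The stellate and fibroblast markers summed to 235, 326 and 354 in Ela1-Myc, against 45.3, 82.8 and 43.3 in WT, and the islet markers to 2311, 2700 and 3157 in Ela1-Myc, against 0, 2266 and 332 in WT. The adipocyte markers summed to 21.3, 73.8 and 37.7 in Ela1-Myc, against 36.8, 0.718 and 0 in WT, and the proliferation markers to 35.6, 58.6 and 53.4 in Ela1-Myc, against 0, 4.80 and 0 in WT. As deposited 5 of 5 islet, 3 of 3 proliferation, 3 of 3 adipocyte and 2 of 3 stellate and fibroblast markers were called higher. After scaling 2, 3, 0 and 2 of them were, in that order. The part of any of these cells in the inducible subunits was not tested.

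The 8 other antigen-processing genes listed beside these subunits were all called higher on the deposited scale (median log2 change 2.75), and 3 after scaling (median 1.75), namely Tap2, Tapbp and Erap1, where 70.2% and 18.3% of all genes tested were. Of the 8, 7 were listed at 0 in WT replicate 3 and enter the medians with those zeros. Tap1 was at 6.38, 16.8 and 18 in Ela1-Myc, against 3.40, 0.889 and 0 in WT. B2m, the light chain of class I molecules, was at 323.5, 986 and 884 in Ela1-Myc, against 202.5, 68.4 and 0 in WT. Both were lowest of the Ela1-Myc libraries in replicate 1, as Psmb8 and Psme1 were.

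The remaining activators and the inhibitor were called on 1 scale at most. Psme3, which encodes a nuclear activator, was at 16.3, 9.20 and 16.1 in Ela1-Myc, against 2.70, 5.89 and 0 in WT, with limma adjusted p of 0.00421 as deposited and 0.267 after scaling. Psme4, which encodes the activator PA200, was at 4.81, 2.46 and 4.62 in Ela1-Myc, against 1.29, 3.86 and 1.59 in WT, and the groups overlapped. Its log2 change was 0.66 ± 0.38 (SE, limma adjusted p = 0.126). After scaling Psme4 was at 2.78, 1.57 and 2.33 in Ela1-Myc, below every WT library at 3.07, 3.98 and 2.82, but did not pass the test (log2 change -0.42 ± 0.22, limma adjusted p = 0.193). How many of all genes tested lay below WT in this way was not counted. Psmf1, which encodes the inhibitor PI31, was at 3.06, 3.73 and 3.93 in Ela1-Myc, against 0.802, 1.86 and 1.31 in WT. Its log2 change was 1.00 ± 0.30 (SE, limma adjusted p = 0.0101), below the median of all genes, and -0.01 ± 0.17 after scaling (limma adjusted p = 0.978).

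All 6 ATPases of the 19S regulator were called higher on the deposited scale (median log2 change 2.51) and 0 after scaling (median 1.32), against 70.2% and 18.3% of all genes tested. Psmc3 had the highest level, at 43.0, 47.1 and 36.0 in Ela1-Myc, against 3.39, 19 and 4.6 in WT. Psmc5 was at 25.7, 25.7 and 24.7 in Ela1-Myc, against 8.76 in WT replicate 2 and 0 in the other WT libraries. Psmc6 had the lowest level, at 11.4, 15.3 and 16.8 in Ela1-Myc, against 0.923, 5.31 and 0.535 in WT. As deposited the groups of all 3 were apart, as they were for 75.3% of all genes tested, and the Ela1-Myc values of Psmc5 were nearly equal. Psmc2 had the smallest scaled change of the ring, 0.92 ± 0.40 log2 units (SE, limma adjusted p = 0.128), and it was at 19.7, 22.2 and 21.8 in Ela1-Myc, against 2.53, 10.2 and 1.71 in WT.

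Of the 3 base non-ATPase subunits, all were called higher on the deposited scale (70.2% of all genes tested were), and Psmd2 alone after scaling (18.3% of all were). Psmd2, which encodes a scaffold that docks ubiquitin-like proteins, was at 21.3, 25.9 and 24.0 in Ela1-Myc, against 0.460, 7.02 and 0 in WT (limma adjusted p = 0.044 after scaling). That scaled call of Psmd2 was lost without any 1 library but WT replicate 2 (limma adjusted p between 0.0761 and 0.147), with a minimum mean of 5 (0.0574), with no filter (0.0977) and with a pseudocount of 0.1 (0.116). Psmd1, the other large scaffold, was at 9.28, 11.8 and 12.4 in Ela1-Myc, against 0.897, 3.25 and 0 in WT. Psmd4, which encodes a ubiquitin receptor, was at 34.6, 23 and 28.2 in Ela1-Myc, against 4.15, 12.1 and 1.46 in WT. None of the 3 overlapped between groups on either scale, as held for 75.3% of all genes tested as deposited and 30.4% after scaling, and Psmd4 differed by 2.41 ± 0.63 log2 units (SE, limma adjusted p = 0.00417), and by 1.08 ± 0.51 after scaling (limma adjusted p = 0.156). Psmd2 shares 26.1% of its 50-base words with other genes.

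The 8 lid subunits held calls in both directions. On the deposited scale 7 were called higher (median log2 change 2.21), and after scaling 2 were higher and 1 was lower (median 0.86). Of all genes tested, 70.2% were higher as deposited, and 18.3% were higher and 8.02% lower after scaling. Psmd14, which encodes the deubiquitinase that removes the ubiquitin chain, was at 10.7, 8.40 and 15.6 in Ela1-Myc, against 0.127, 3.24 and 0.023 in WT. Psmd7, which encodes its partner subunit, was at 17, 23.1 and 22.3 in Ela1-Myc, against 5.95 in WT replicate 2 and 0 in the other WT libraries. Both were called higher on both scales, and Psmd14 changed by 2.03 ± 0.53 log2 units after scaling (SE, limma adjusted p = 0.033). Set against WT replicate 2 alone on that scale, Psmd14 differed by 0.76 (limma adjusted p = 0.141). Without any 1 library but WT replicate 2 the scaled calls were lost, with limma adjusted p between 0.0598 and 0.127 for Psmd14 and between 0.0707 and 0.138 for Psmd7. Psmd8 had the highest lid level, at 65.8, 46.6 and 36.6 in Ela1-Myc, against 4.49, 25.9 and 6.04 in WT. Psmd11 had the lowest, at 11, 10.7 and 10.9 in Ela1-Myc, against 1.43, 3.0 and 0.133 in WT.

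Psmd6, a lid subunit of the same complex (chr14:14112185-14120904, minus strand), was the exception. It was at 35.4, 28.2 and 28.9 in Ela1-Myc, against 15, 36.6 and 17.1 in WT, and WT replicate 2 was the highest of all. The log2 change was 0.51 ± 0.64 as deposited (SE, limma adjusted p = 0.469). After scaling Psmd6 was at 20.4, 18 and 14.6 in Ela1-Myc, against 35.7, 37.8 and 30.4 in WT, so the groups were apart with WT higher. The share of all genes tested that were apart in that direction was not counted. The fitted changes of the other 7 lid genes were above 0. The scaled change was -0.94 ± 0.27 (SE, limma adjusted p = 0.0446), and Psmd6 was the single proteasome gene called lower. That call was lost without any 1 of 5 libraries (limma adjusted p between 0.0743 and 0.127) and kept without Ela1-Myc replicate 1 (0.0498), and its sign stayed negative in each.

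The 3 chaperones of base assembly were all called higher on the deposited scale (median log2 change 1.39), and 1 after scaling (median 0.41). The same calls were made for 70.2% and 18.3% of all genes tested. Psmd10, also known as gankyrin, was at 3.19, 4.93 and 4.83 in Ela1-Myc, against 0.461, 0.494 and 0.730 in WT. Its means were 4.31 ± 0.978 in Ela1-Myc and 0.562 ± 0.147 in WT (SD, n = 3 each), and its log2 change was 1.75 ± 0.28 (SE, limma adjusted p = 0.000193). After scaling it was 0.82 ± 0.24 (limma adjusted p = 0.0439), a call lost on leaving out any 1 library. In Psmd10 WT replicate 2 lay between the other WT libraries. Psmd9 was at 2.41, 2.89 and 3.05 in Ela1-Myc, against 0.425, 0.723 and 0.619 in WT, and Psmd5 was at 6.96, 8.88 and 8.22, against 1.54, 4.18 and 2.04. Neither passed the test after scaling.

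The 4 chaperones of core assembly, Psmg1 to Psmg4, were all called higher on the deposited scale (median log2 change 2.62), and Psmg3 alone after scaling (median 1.70). Among all genes tested the shares called higher were 70.2% and 18.3%. Of the 4, Psmg2 alone was above 0 in every library, with log2 changes of 1.77 as deposited and 0.48 after scaling. Psmg2 was at 11.4, 12.7 and 11.9 in Ela1-Myc, against 3.06, 3.39 and 2.12 in WT, with the narrowest WT range of the 4. Psmg3 was at 10.4, 15.2 and 9.86 in Ela1-Myc, against 0.513, 2.9 and 0 in WT (limma adjusted p = 0.0371 after scaling, a call lost without any 1 library but WT replicate 2, at 0.0525 to 0.138), and Psmg4 was at 12, 11.1 and 10.7, against 1.12, 3.05 and 0. Pomp, the maturation factor that works with them, was at 39.3, 61.2 and 54.1 in Ela1-Myc, against 2.64, 18.4 and 1.61 in WT, with limma adjusted p of 0.00193 as deposited and 0.061 after scaling. As deposited these genes were higher in every Ela1-Myc library than in any WT library, as were 75.3% of all genes tested. After scaling Psmg2 overlapped, with WT replicate 1 at 7.26 and Ela1-Myc libraries between 5.98 and 8.13.

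Lists of associated, delivery and ubiquitin genes had smaller medians than the proteasome genes. Their counts stand beside 70.2% of all genes tested called higher as deposited, and 18.3% higher and 8.02% lower after scaling. Of 9 tested proteasome-associated genes, 8 were called higher on the deposited scale (median log2 change 1.56), and Usp14 alone after scaling (median 0.24). Adrm1, a ubiquitin receptor of the regulator that the symbol rule does not catch, was at 27.6, 17.5 and 20.1 in Ela1-Myc, against 5.70, 12.9 and 3.66 in WT, with limma adjusted p of 0.0243 as deposited and 0.712 after scaling. Of 9 genes that deliver ubiquitinated substrates, 7 were called higher as deposited (median 1.17) and 0 after scaling, with Ubqln2 lower (median -0.01). Of 5 tested ubiquitin and E1 enzyme genes, 2 were called higher as deposited (median 1.36) and 0 after scaling (median -0.15).

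Of the 4 genes of the factors known to control proteasome transcription and of their processing, 3 were called higher on the deposited scale (70.2% of all genes tested were). After scaling Nfe2l2 and Ddi2 were higher (18.3% of all were) and Ngly1 was lower (8.02% of all were). Nfe2l1, the factor that raises proteasome gene transcription when degradation is impaired, was at 11.8, 8.72 and 12 in Ela1-Myc, against 3.52, 8.50 and 2.15 in WT. Its log2 change was 1.19 ± 0.49 (SE, limma adjusted p = 0.0421), and -0.10 ± 0.32 after scaling (limma adjusted p = 0.833). Nfe2l2, the oxidative stress factor, was at 10.1, 19.3 and 17.9 in Ela1-Myc, against 0.795, 3.52 and 1.13 in WT, and changed by 1.5 log2 units after scaling (limma adjusted p = 0.0199).

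The remaining 3 of the 49 genes had means below 1 and were not tested. Psma8, the alpha subunit of the testis, was between 0.039 and 0.162 in Ela1-Myc and between 0 and 0.019 in WT. Psmb11, the beta subunit of thymic cortical epithelium, was at most 0.018 in Ela1-Myc and 0.011 in WT. Both were near 0 throughout. Psmc3ip, a meiotic recombination factor that is no proteasome subunit and fits the rule by its symbol alone, was at 1.23, 1.79 and 1.87 in Ela1-Myc, against 0, 0.074 and 0 in WT. As deposited every Ela1-Myc value lay above every WT value for Psmc3ip and for Psma8. The share of all untested genes for which this held was not counted.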

How the data were processed

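PolyA RNA from mouse pancreas was sequenced on the Genome Analyzer IIx, per the labels' protocols. The deposited values are adjusted FPKM, per the file headers. The submitters' processing notes name Cufflinks 2.0.2, TopHat2 2.0.4, Bowtie, affy, FastQC 0.9.4, CASAVA 1.8 and the build GRCm38/mm10. How the FPKM were adjusted, and whether quantification used strand, the sources used here do not state. The deposited FPKM reached values far above the usual range of that unit and were divided by 100000, a scale set from the values and not stated by the authors. Depth is unknown from FPKM, so no counting interval is given.

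Each file held 23422 rows, with several rows for 187 of 23099 symbols. The 8802 genes whose mean over the libraries reached 1 were tested on log2(value + 1) with limma 3.58.1 in R 4.3.3, with a mean-variance trend and Benjamini-Hochberg adjustment over all of them. A log2 change is therefore on the log2(value + 1) scale and understates that of low genes. A value listed at 0 can be a failed estimate, so no mean, SD or fold is given for a gene in a group that holds one. Adjusted p-values, medians over gene lists and sums over rings take 0 as measured. The second scale divides each library by its median ratio over the 6995 genes above 0 in all 6 libraries. Ratios within a library were tested with exact permutation tests in scipy 1.17.1. The fit was tested on simulated data. Alternatives were another pseudocount, other filters, other scalings, array weights, each library left out and, chosen after seeing the data, WT replicate 2 as the only WT library and ratios over subunits above 0 in all 6 libraries.

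The proteasome genes and the gene lists were chosen with earlier results of these data known. Genes named with values are the active-site subunits and their inducible counterparts, selected regulator, activator and assembly genes, the highest and lowest in mean and in scaled change of each class, any gene called lower and any that is no subunit. Positions and shared 50-base words are from GENCODE M21.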

Additional observations from a re-analysis of the deposited data

How the results depend on the processing

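The choice of scale mattered most. The median log2 change of the tested proteasome genes was 2.38 as deposited, where that of all genes tested was 1.22. It was 1.07 after median-of-ratios scaling (0.23 for all genes) and 0.90 after quantile normalization (-0.094 for all genes). With WT replicate 2 as the only WT library it was 1.14 (0.85 for all genes), and with 1 library left out it lay between 1.91 and 3.01. The 42 calls of higher expression (70.2% of all genes tested) became 10 by median-of-ratios (18.3%) and 7 by quantile normalization (10.7%). At equal totals without the digestive enzymes they became 27 (26.6%), and with 1 library left out 34 to 46 (51.7% to 80.8%). The 0 calls of lower expression (0.239% of all) became 1 by median-of-ratios (8.02%) and 2 by quantile normalization (15.6%). On the median-of-ratios scale the median, 1.07, ranged from 0.64 to 1.45 with 1 library left out. With WT replicate 2 as the only WT library it was 0.38, and that of all genes was 0.21. The 10 calls on that scale became 20 with array weights (24.8% of all genes tested) and 3 with a pseudocount of 0.1 (10.6%). They became 6 of the 31 above 0 in every library (10.5%), 5 of 42 with a minimum mean of 5 (11.2%) and 5 of 49 with no filter (7.48%). With 1 library left out there were 1 to 24 (5.87% to 20.9%), while the 1 lower call became 0 to 1 (2.09% to 7.35%).

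The log2 difference of the ATPase to alpha ratio, 0.02, was -0.15 with a pseudocount of 1 and ranged from -0.059 to 0.17 with 1 library left out, and that of the beta to alpha ratio, -0.91, was -0.50 over subunits above 0 in all 6 libraries. Signs turned, as deposited, for Adrm1 (-0.051 by quantile normalization), Nfe2l1 (-0.10 and -0.35 by median-of-ratios and quantile), Psmb10 (-0.080 against WT replicate 2 alone, -0.31 and -0.41 by the scalings), Psmd5 (-0.11 by quantile), Psmd6 (-0.25, -0.54 at equal totals, -0.94 and -1.13), Psme4 (-0.0062, -0.12, -0.42 and -0.76) and Psmf1 (-0.0071 and -0.39). After median-of-ratios scaling they turned for Adrm1 (-0.12 against WT replicate 2 alone, -0.13 to 0.35 with 1 library left out), Nfe2l1 (-0.43 to 0.083 with 1 library left out), Psmb5 (-0.31 against WT replicate 2 alone, -0.031 with array weights), Psmb6 (-0.14) and Psmf1 (0.054 against WT replicate 2 alone, -0.086 to 0.058 with 1 library left out). Over the named genes and alternatives, 414 values as deposited and 329 after scaling kept direction and call. With the direction kept, 97 and 59 lost the call and 10 and 28 gained it. The sign turned in 17 and 11, whatever the call. The cause was not tested. No paired analysis was possible because the labels carry no replicate numbers, and those used here follow accession order. Depth is unknown.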
